A study of Vitis vinifera and Vitis vinifera
Schisandra chinensis with 13 samples.

Results

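Glutathione metabolism genes were taken as all genes whose KEGG annotation in the deposited gene table names this pathway, without those that also name carbon metabolism, the peroxisome, purine metabolism or the biosynthesis of amino acids. The rule gave 73 genes of the 25819 in the table, after 11 of 84 had been dropped. The rule used annotation alone and no measured value. The tested plants were 3 Vs hybrids, which are scions of *Vitis vinifera* 'Hongruibao' grown on *Schisandra chinensis* rootstock and sampled 25 years after grafting. They were set against 3 Vv plants, which are 'Hongruibao' on its own roots and which the study calls self-rooted and also self-grafted. The sampling time is given as 25 years for them too. Each plant gave 1 RNA-seq and 1 small RNA library, both made from a mixture of its berry, leaf and phloem RNA with the berries taken whole at ripeness, and RNA of all plants together gave 1 degradome library, in which the cut ends of transcripts are sequenced. Levels are in FPKM, fragments scaled to transcript length and to the mapped fragments of the library. In such pools, fewer cells of a type and less RNA per cell cannot be told apart, and no difference can be assigned to an organ.

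Glutathione is a small thiol made from glutamate, cysteine and glycine, and it is the main soluble redox buffer of plant cells. Glutathione peroxidases use thiols to remove peroxides, glutathione reductase restores the reduced form, and ascorbate peroxidase and dehydroascorbate reductase link it to ascorbate. Glutathione S-transferases (GSTs) form a large plant family that attaches glutathione to reactive compounds, and in grapevine berries some of them take part in moving anthocyanins into the vacuole.

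The 73 genes fell into 51 GSTs, 7 ascorbate peroxidases, 5 glutathione peroxidases, 2 glutathione reductases, 2 spermidine synthases, and 1 gene each for glutamate-cysteine ligase, glutathione synthetase, gamma-glutamyl transpeptidase, dehydroascorbate reductase, leucyl aminopeptidase and aminopeptidase N. The KO identifier and the EC number named the same enzyme for all 73. The level needed for testing, 1 FPKM or more on average across libraries, was reached by 54 of them. The other 19 were 18 GSTs and 1 ascorbate peroxidase, with no value above 3.45 FPKM in any library. Mean levels of the 54 ran from 1.01 to 686 FPKM, with 6 genes above 100 FPKM, 31 between 10 and 100 FPKM and 17 under 10 FPKM. In 10 of the 73 rows several locus tags were merged, and GSTs are a family of close copies, so reads may be shared between its members.

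The libraries differed in several respects, and the part of this in the levels of the members was not tested. Between 21471 and 22154 genes were above 0 FPKM per library, and the read depth per library is not given in the table. The 10 most abundant genes took 34.1 to 47.3% of summed FPKM in Vs hybrids and 20.3 to 24.5% in Vv plants, and the median log2 fold change (Vs hybrids over Vv plants, on FPKM + 1) of all 15447 tested genes was -0.25. After median-ratio scaling, which sets libraries to a common typical gene, that median was -0.01. Summed over 18 leaf markers (light-harvesting antenna proteins and the small subunit of Rubisco), FPKM was 12879, 10625 and 15245 in Vs hybrids, against 11474, 17846 and 1724 in Vv plants. The library of Vv replicate 3 was thus low in leaf transcripts, with 1 of the 18 markers at 0 there and 1 or 2 at 0 in each other library. Over 4 ripe berry markers the sums were 57.9, 402 and 126 FPKM in Vs hybrids, against 61.5, 643 and 1360 FPKM in Vv plants, where replicate 3 was highest. Over 6 phloem markers they were 12.8, 28.3 and 30.2 FPKM in Vs hybrids and 19.8, 18.1 and 23.7 FPKM in Vv plants. In 32 of the 54 tested members (59.3%) Vs replicate 1 was the lowest Vs hybrid. In 28 (51.9%) Vv replicate 3 was the lowest Vv plant. The matching shares over all tested genes were not counted.

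Of the 54 tested members, 1 gene, a GST, was higher in Vs hybrids at an adjusted p under 0.05 (limma, Benjamini-Hochberg over all tested genes) and 0 were lower. Over all tested genes 43 were higher and 43 lower, 0.278% in each direction and 0.557% in all. At an unadjusted p under 0.05, 8 members were higher and 4 lower (12 in all, 22.2%), where 3.96% and 16.5% of all tested genes were (20.4% in all). The 8 higher ones were all GSTs, and the 4 lower ones were 1 GST, 2 glutathione peroxidases and the gamma-glutamyl transpeptidase. The median log2 fold change of the 54 members was -0.06, with 24 above 0 and 30 below, beside -0.25 and 32.5% above 0 over all tested genes. After median-ratio scaling it was 0.20, with 35 above 0 and 19 below, and after quantile normalization 0.13, with 34 above 0 and 20 below. Without Vv replicate 1 the median was likewise above 0 (0.13, with 33 members above 0), so no direction is given for the pathway as a whole.

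**Figure D1:**
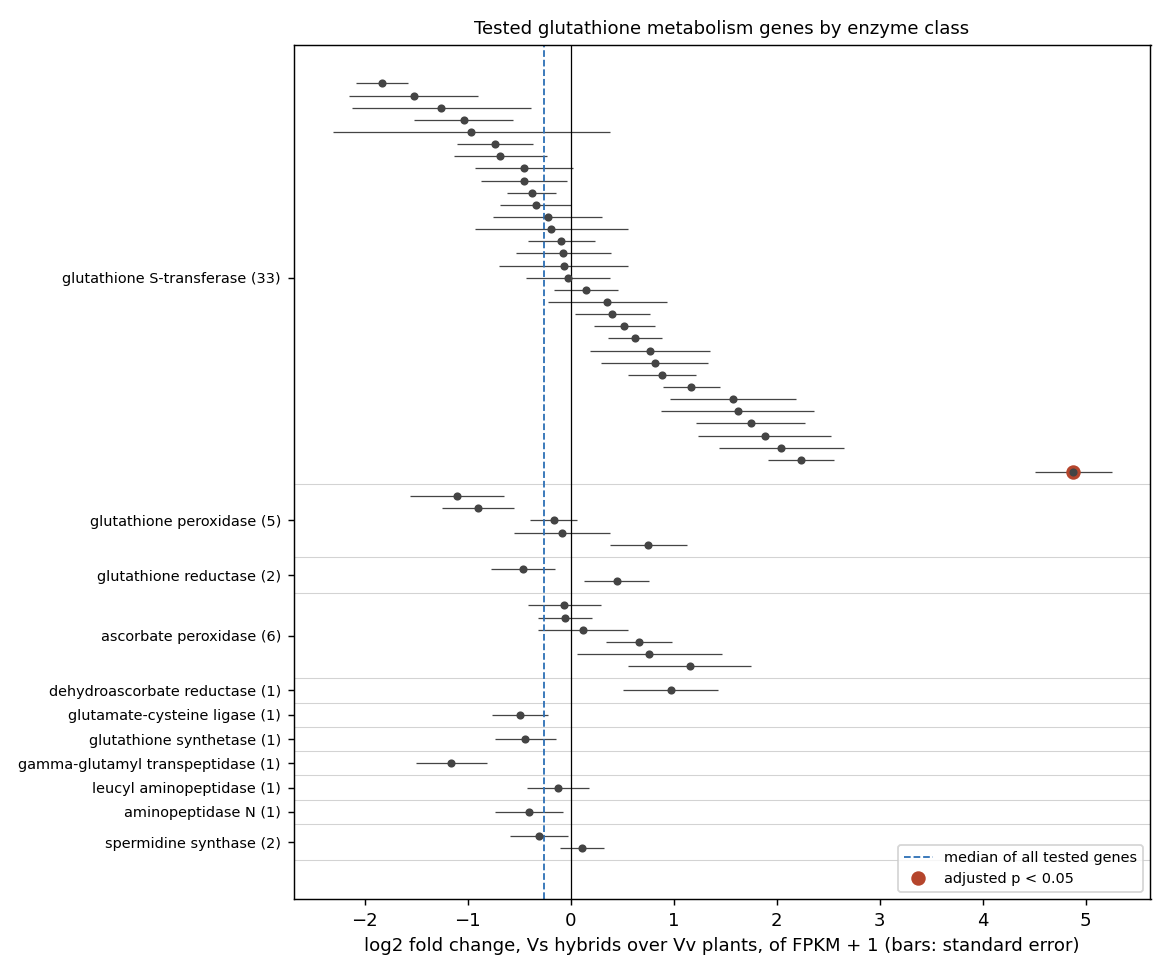
Log2 fold change of FPKM + 1, Vs hybrids over Vv plants, for the 54 tested glutathione metabolism genes by enzyme class (number of genes in brackets; bars are standard errors). The GST row runs from -1.83 to 4.88 and holds the 1 gene with an adjusted p under 0.05, and the dashed line is the median of all tested genes, -0.25.

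MSTRG.14583 (VIT_04s0079g00690, on chromosome 4), annotated only as a glutathione S-transferase, was the gene that rose. It was at 315, 486 and 646 FPKM in the 3 Vs hybrids, against 12.8, 21.9 and 11.3 FPKM in the 3 Vv plants. The lowest Vs library was thus far above the highest Vv library. The means were 483 ± 166 FPKM in Vs hybrids and 15.3 ± 5.73 FPKM in Vv plants (SD, n = 3 each), 31.5 times higher in Vs hybrids. The log2 fold change was 4.88 (SE 0.37, limma adjusted p = 0.00776), and 19 of all tested genes had a larger one. An exact two-sided permutation test of 3 against 3 libraries gave 0.1, the smallest p it allows. Leaving out 1 library at a time, the log2 fold change stayed between 4.64 and 5.16, and the adjusted p was 0.0186 to 0.0559, with the call lost without Vs replicate 2 alone. Without Vv replicate 3, the library low in leaf markers, the log2 fold change was 4.70. With the replicate number added to the fit as a block, the limma adjusted p was 0.0923, so the call was lost there too.

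MSTRG.14583 made up 24.7, 25.3 and 34.9% of the summed FPKM of the 51 GSTs in the Vs hybrids, and 1.34, 2.39 and 1.33% in the Vv plants. The GST sum itself was 1274, 1923 and 1853 FPKM in Vs hybrids, against 958, 916 and 849 FPKM in Vv plants. Without this gene the sums were 959, 1437 and 1206 FPKM in Vs hybrids and 945, 894 and 837 FPKM in Vv plants, which still did not overlap but came within a few percent of each other between Vs replicate 1 and Vv replicate 1. After median-ratio scaling the sums without it were 1139, 1491 and 1330 in Vs hybrids and 854, 761 and 802 in Vv plants. These sums carry no test. FPKM summed over all genes likewise did not overlap, at 520529 to 582510 in Vs hybrids and 439752 to 461260 in Vv plants.

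**Figure D2:**
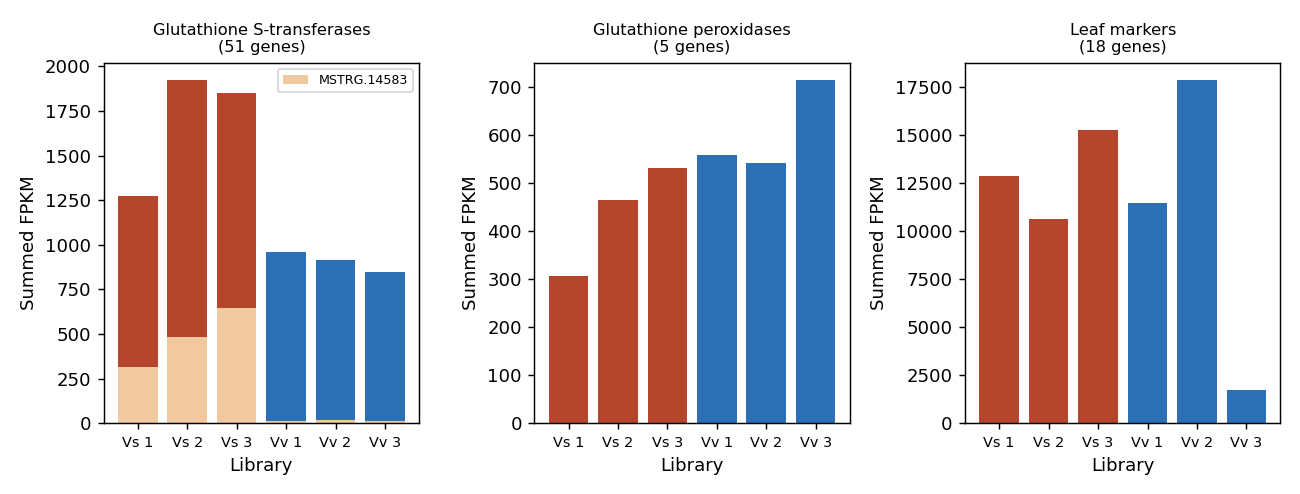
Summed FPKM per library of the 51 GSTs (the pale part is MSTRG.14583), the 5 glutathione peroxidases and the 18 leaf markers, Vs hybrids on the left of each panel and Vv plants on the right. The GST sums are 1274 to 1923 FPKM in Vs hybrids and 849 to 958 FPKM in Vv plants, and the leaf marker sum of Vv replicate 3 is 1724 FPKM.

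The other tested GSTs were split, 15 above 0 and 17 below 0, and their median log2 fold change was -0.05 (21 and 11, and 0.20, after median-ratio scaling). Over all 33, the groups did not overlap in 8 genes with Vs hybrids above and 4 with Vs hybrids below. Over all 54 members these counts were 10 (18.5%) and 6 (11.1%), where 5.55% and 26.2% of all tested genes were (31.8% in all). After median-ratio scaling 14 members (25.9%) lay above and 2 (3.7%) below, beside 11.9% and 12.7% of all tested genes. A log2 fold change above 1 was seen in 9 members, of which 8 were GSTs, and in 6.65% of all tested genes, and one below -1 in 6 members and in 8.22% of all tested genes. Without Vv replicate 3, 9 members had a log2 fold change above 1, against 5.07% of all tested genes, and 7 members were above 1 in both fits.

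MSTRG.725 (VIT_01s0026g01340, chromosome 1) was the GST with the most negative log2 fold change. Its levels were 20.1, 22.1 and 20.8 FPKM in Vs hybrids, against 58.7, 100 and 77.5 FPKM in Vv plants. The Vs hybrids were close to each other and all under the lowest Vv plant. The log2 fold change was -1.83 (SE 0.25, limma adjusted p = 0.0508), just outside the threshold, and the gene passed it where the filter was set at 5 FPKM (adjusted p = 0.0477). After median-ratio scaling the limma adjusted p was 0.0736, and with the replicate number as a block it was 0.177. The gene did not pass with any library left out (adjusted p 0.0685 to 0.202), and its log2 fold change then stayed between -2.02 and -1.64.

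A group of 5 neighbouring GST genes on chromosome 7, MSTRG.17715 to MSTRG.17719, had its 4 tested genes all above 0, with a median log2 fold change of 1.97. The group was singled out after its values had been seen, and a run was counted as at least 3 members whose gene numbers lay no more than 5 apart. Which genes are neighbours rests on the deposited gene IDs. Of 219 rows of a published list matched by their values, 1 has the same ID. MSTRG.17715 (VIT_07s0104g01800 and VIT_07s0104g01810) was at 7.74, 7.36 and 3.94 FPKM in Vs hybrids and at 0.934, 0.495 and 0.185 FPKM in Vv plants. Its log2 fold change was 2.24 (SE 0.32, limma adjusted p = 0.0593), and 11.8 was the ratio of the means, so the change on the FPKM + 1 scale understates that ratio. It missed the threshold in each alternative run for it (it is under the 5 FPKM filter), with a limma adjusted p of 0.0519 to 0.127 with all libraries and 0.0638 to 0.241 with 1 library left out.

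MSTRG.17718 (VIT_07s0005g00010) was at 31.7, 40.5 and 49.2 FPKM in Vs hybrids, against 22.2, 8.78 and 3.26 FPKM in Vv plants. MSTRG.17719 (VIT_07s0005g00030) was at 61.1, 142 and 69.1 FPKM in Vs hybrids, against 55.6, 18.3 and 10.3 FPKM in Vv plants. In both genes every Vs hybrid was above every Vv plant, with Vv replicate 1 closest to the Vs hybrids and Vv replicate 3 lowest. The log2 fold changes were 2.05 (SE 0.61) for MSTRG.17718 and 1.88 (SE 0.65) for MSTRG.17719, with limma adjusted p of 0.185 and 0.205. Without Vv replicate 3 they were 1.44 and 1.37, and the part of the low leaf transcripts of that library in them was not tested. The neighbour MSTRG.17717 was at 0.677 to 1.93 FPKM in Vs hybrids and 0.288 to 0.872 FPKM in Vv plants, and MSTRG.17716 was too low to test.

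**Figure D3:**
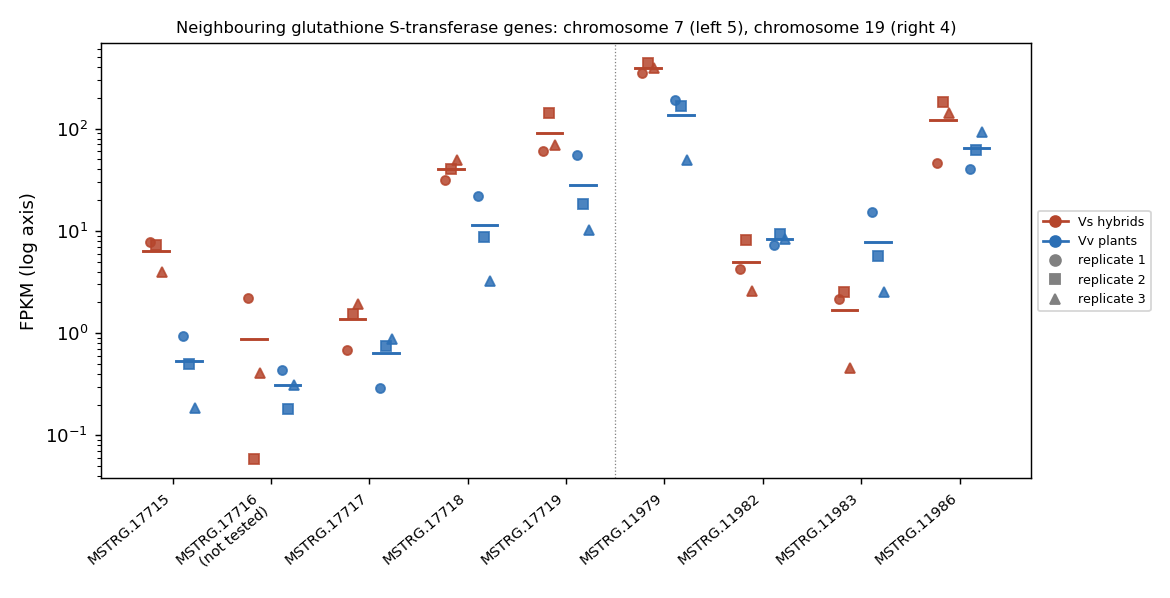
FPKM in each library (log axis) of 5 neighbouring GST genes on chromosome 7, left of the dotted line, and 4 tested ones on chromosome 19, right of it; within each gene the Vs hybrids are left of the Vv plants, symbols mark the replicate and short bars the mean. All 3 Vs hybrids lie above all Vv plants for MSTRG.17715, MSTRG.17718 and MSTRG.17719 on chromosome 7, and the chromosome 19 genes go both ways.

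A second run of 5 GSTs, on chromosome 19 and also picked after its values were seen, did not go one way. MSTRG.11979 (VIT_19s0093g00220), the GST with the highest mean over the 6 libraries but in neither group alone, was at 347, 437 and 395 FPKM in Vs hybrids, against 190, 166 and 48.8 FPKM in Vv plants. All Vs hybrids were above all Vv plants, and Vv replicate 3 was lowest. Its log2 fold change was 1.75 (SE 0.53, limma adjusted p = 0.185), and 1.14 without Vv replicate 3, where the leaf marker sum was 1724 FPKM; the part of this in the result was not tested. Its neighbour MSTRG.11983 (VIT_19s0093g00400) was at 2.14, 2.50 and 0.457 FPKM in Vs hybrids, against 15.2, 5.71 and 2.50 FPKM in Vv plants. The highest Vs hybrid and the lowest Vv plant were nearly equal there, and the log2 fold change was -1.52 (SE 0.63, limma adjusted p = 0.244), and -0.94 without Vv replicate 1. The 2 other tested genes of the run, MSTRG.11982 and MSTRG.11986, had log2 fold changes of -0.73 and 0.77, with limma adjusted p of 0.298 and 0.461.

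Of the remaining GSTs, MSTRG.5490 (VIT_14s0060g02170) was at 12.0, 5.25 and 7.41 FPKM in Vs hybrids, against 7.42, 1.47 and 0.128 FPKM in Vv plants. These ranges overlapped, and the log2 fold change of 1.62 (limma adjusted p = 0.271) was 0.95 without Vv replicate 3. MSTRG.18055 (VIT_07s0005g04880 and VIT_07s0005g04890) was at 20.1, 36.2 and 6.38 FPKM in Vs hybrids, against 7.65, 3.69 and 4.38 FPKM in Vv plants, a log2 fold change of 1.58 (limma adjusted p = 0.229), with Vs replicate 3 below Vv replicate 1. *GSTL2* (MSTRG.4232), of the lambda class of GSTs, was outside the naming rule and was chosen after its values had been seen. It was at 37.9, 30.7 and 22.7 FPKM in Vs hybrids, against 9.87, 14.0 and 14.6 FPKM in Vv plants, with no overlap, and its log2 fold change was 1.17 (SE 0.28, limma adjusted p = 0.156). Unlike MSTRG.5490 it was not lower without Vv replicate 3, at 1.27.

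MSTRG.11921, a row that merges 7 locus tags of chromosome 19, was at 20.5, 169 and 158 FPKM in Vs hybrids, against 126, 185 and 334 FPKM in Vv plants. Vs replicate 1 was far below the other libraries, and the log2 fold change of -1.25 (limma adjusted p = 0.426) was -0.28 without it. MSTRG.2956 (VIT_12s0028g00930) was at 3.94, 12.5 and 11.6 FPKM in Vs hybrids, against 17.7, 12.6 and 27.4 FPKM in Vv plants, and its log2 fold change of -1.04 (limma adjusted p = 0.275) was -0.57 without Vs replicate 1. MSTRG.21066 (VIT_00s0153g00070), on unplaced sequence, was low throughout, at 0.507 to 1.14 FPKM in Vs hybrids and 0.724 to 3.68 FPKM in Vv plants (log2 fold change -0.45, limma adjusted p = 0.537, and -0.02 without Vv replicate 1).

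**Figure D4:**
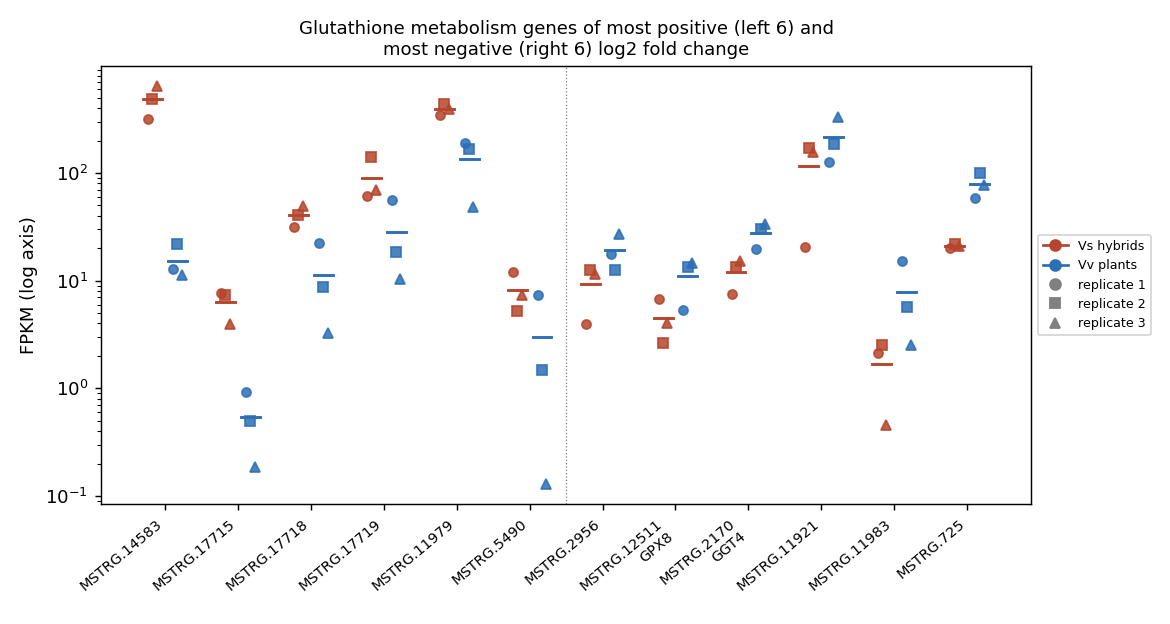
FPKM in each library (log axis) of the 6 members with the most positive log2 fold change, left of the dotted line, and the 6 with the most negative, right of it; within each gene the Vs hybrids are left of the Vv plants, symbols mark the replicate and short bars the mean. MSTRG.14583 shows the widest gap, and in MSTRG.725 the 3 Vs hybrids lie at 20.1 to 22.1 FPKM under all Vv plants.

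Glutathione peroxidases, the peroxide-removing class, summed to 306, 464 and 531 FPKM in Vs hybrids and to 559, 541 and 714 FPKM in Vv plants. The sums did not overlap, but after median-ratio scaling they did, at 364, 482 and 585 in Vs hybrids and 505, 460 and 684 in Vv plants. Of the 5 genes, 1 was above 0 and 4 were below (3 above and 2 below after median-ratio scaling), and 0 passed the adjusted threshold, beside 0.557% of all tested genes, while 2, both lower in Vs hybrids, had an unadjusted p under 0.05 by limma, where 16.5% of all tested genes were lower at that level. *ATGPX6* (MSTRG.12512) made up 52.0 to 62.1% of the class in Vs hybrids and 68.4 to 86.5% in Vv plants. It was at 159, 288 and 317 FPKM in Vs hybrids, against 415, 370 and 618 FPKM in Vv plants, with every Vs hybrid below every Vv plant. Its log2 fold change was -0.90 (SE 0.35, limma adjusted p = 0.232), and -0.59 without Vs replicate 1. *GPX8* (MSTRG.12511) was at 6.71, 2.64 and 4.04 FPKM in Vs hybrids, against 5.30, 13.3 and 14.5 FPKM in Vv plants, with overlap between Vs replicate 1 and Vv replicate 1 (log2 fold change -1.10, limma adjusted p = 0.243). The glutathione peroxidase MSTRG.14451 (VIT_04s0008g06780) was at 112, 127 and 163 FPKM in Vs hybrids, against 94.0, 110 and 46.2 FPKM in Vv plants. Its log2 fold change of 0.76 (limma adjusted p = 0.291) was 0.38 without Vv replicate 3.

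The 2 glutathione reductases had log2 fold changes on either side of 0. *ATGR1* (MSTRG.15900) was at 26.0, 48.7 and 49.0 FPKM in Vs hybrids, against 63.2, 53.8 and 48.8 FPKM in Vv plants (log2 fold change -0.46, limma adjusted p = 0.412, and -0.17 without Vs replicate 1). The other, labelled *GR* (MSTRG.17490), was at 31.4, 38.5 and 47.5 FPKM in Vs hybrids, against 34.6, 34.0 and 18.6 FPKM in Vv plants (log2 fold change 0.45, limma adjusted p = 0.435, and 0.17 without Vv replicate 3). For both the groups overlapped.

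In the ascorbate branch, 4 of the 6 tested ascorbate peroxidases were above 0 and 2 below (6 and 0 after median-ratio scaling). Of these 6, 0 passed the adjusted threshold, beside 0.557% of all tested genes. An unadjusted p under 0.05 by limma was seen in 0 of them, beside 20.4% of all tested genes. The gene with the highest level of all members, the ascorbate peroxidase MSTRG.16677 (VIT_06s0004g03550), was at 703, 739 and 1062 FPKM in Vs hybrids, against 758, 413 and 440 FPKM in Vv plants. Vv replicate 1 lay within the range of the Vs hybrids, and the log2 fold change was 0.67 (SE 0.32, limma adjusted p = 0.286). *APX4* (MSTRG.9763), chosen after its values were seen, was at 40.1, 36.0 and 57.8 FPKM in Vs hybrids, against 32.1, 30.2 and 6.75 FPKM in Vv plants. Its log2 fold change of 1.16 (limma adjusted p = 0.307) was 0.47 without Vv replicate 3. Dehydroascorbate reductase (MSTRG.21891, VIT_00s0317g00050), which restores ascorbate at the expense of glutathione, was at 62.4, 114 and 166 FPKM in Vs hybrids, against 86.4, 43.0 and 40.9 FPKM in Vv plants. The groups overlapped, and the log2 fold change was 0.97 (SE 0.46, limma adjusted p = 0.281). The ascorbate peroxidase MSTRG.14925 (VIT_04s0023g03750) was below the test level, at 0.372 to 1.95 FPKM in Vs hybrids and 0.430 to 0.800 FPKM in Vv plants.

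**Figure D5:**
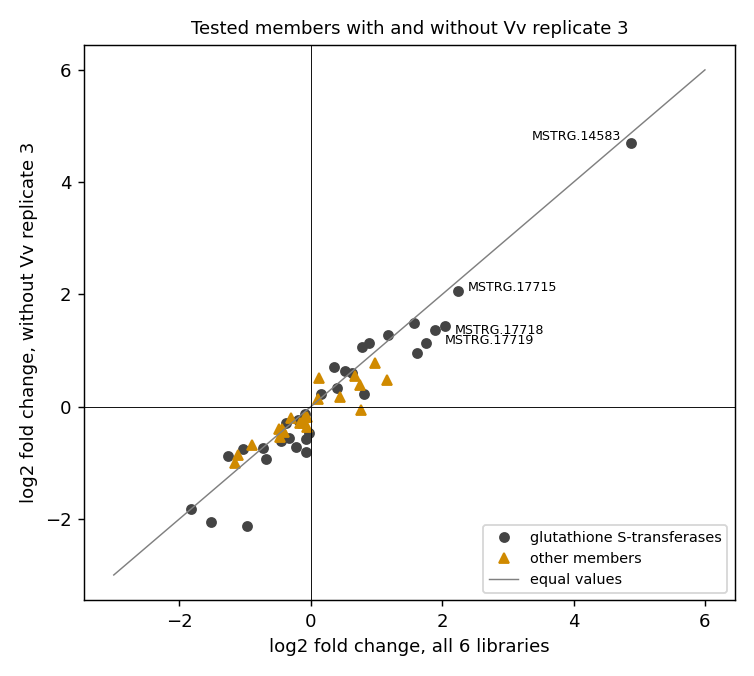
Log2 fold change of the 54 tested members with all 6 libraries (horizontal axis) and without Vv replicate 3 (vertical axis), GSTs as circles and other members as triangles. MSTRG.14583 is at 4.88 with all libraries and 4.70 without that one, and MSTRG.17718 and MSTRG.17719 lie under the line of equal values.

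Synthesis and breakdown genes were all below 0 but did not pass the threshold. *GSH1* (MSTRG.12505), the glutamate-cysteine ligase that makes the first bond of glutathione, was at 30.5, 53.7 and 45.6 FPKM in Vs hybrids, against 53.0, 58.4 and 68.4 FPKM in Vv plants (log2 fold change -0.49, SE 0.27, limma adjusted p = 0.335). *GSH2* (MSTRG.5616), the glutathione synthetase that adds glycine, was at 3.13, 6.39 and 5.55 FPKM in Vs hybrids, against 8.07, 5.58 and 7.33 FPKM in Vv plants (log2 fold change -0.44, SE 0.29, limma adjusted p = 0.413). Each was below the -0.25 of all tested genes by less than 1 SE, and without Vs replicate 1, the lowest library for both genes, they were at -0.26 for *GSH1* and -0.19 for *GSH2*. *GGT4* (MSTRG.2170), a gamma-glutamyl transpeptidase, of the family that splits the glutamyl group off glutathione and its conjugates, was at 7.45, 13.5 and 15.1 FPKM in Vs hybrids, against 19.5, 29.9 and 33.4 FPKM in Vv plants. Every Vs hybrid was below every Vv plant, with a log2 fold change of -1.16 (SE 0.34, limma adjusted p = 0.184), which ranged from -1.38 to -0.87 with 1 library left out.

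The peptidases and polyamine genes that KEGG places on the edge of the pathway had log2 fold changes between -0.40 and 0.11, with overlapping groups in each. Leucyl aminopeptidase (MSTRG.2547, VIT_11s0037g00180) was at 26.4, 34.3 and 43.7 FPKM in Vs hybrids, against 49.6, 35.9 and 28.9 FPKM in Vv plants (log2 fold change -0.12, limma adjusted p = 0.828, turning to 0.16 after median-ratio scaling). Aminopeptidase N (MSTRG.12485, VIT_02s0025g03270 and VIT_02s0025g03280) was at 50.9, 86.5 and 110 FPKM in Vs hybrids, against 93.2, 125 and 97.2 FPKM in Vv plants (log2 fold change -0.40, limma adjusted p = 0.491, and -0.09 without Vs replicate 1). The spermidine synthase MSTRG.645 (VIT_01s0026g00240) was at 29.0, 29.1 and 20.9 FPKM in Vs hybrids, against 23.9, 23.6 and 24.7 FPKM in Vv plants (log2 fold change 0.11, limma adjusted p = 0.782). A second one, *SPDS3* (MSTRG.8254), was at 11.8, 15.9 and 21.3 FPKM in Vs hybrids and 16.4, 20.7 and 23.2 FPKM in Vv plants (log2 fold change -0.31, limma adjusted p = 0.535, and -0.10 without Vs replicate 1).

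The degradome table paired 9 of the 73 genes with small RNAs in 23 pairs, and a cut end was detected for 2 pairs. A detected end was listed in 1559 of 8858 rows (17.6%) over all transcripts, and among the rows of members 5 of 67 (7.46%), where a row is a small RNA and 1 transcript. The sequences of those 2 small RNAs are shown with the other miR396-related partners of the same target and with 3 of the partners of MSTRG.17719, the member with the most pairs. They are given 5′ to 3′ as the files give them, with T for U and with bases 2 to 8, the seed, in capitals.
pgi-miR6138_L-3R-2_1ss19AT: gTTTGGATtgaaggattga
tcc-MIR396e-p3: tTCAAGAAagccgtggaaaa
ptc-miR396g-3p_L-1: tCAAGAAAgccgtgggaaaa
vvi-MIR396a-p3: gCTCAAGAaagctgtgggagg
PC-5p-1738250_3: tATTTGATagtgattttagaaagc
PC-5p-2603595_2: gTTTGATAgtgattttaagaagc
PC-5p-3680964_2: tGTTTGATagtgattataagaagc

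The first was paired with *ATGR1*, with 6 raw degradome reads at position 1501 of the reference transcript, in category 2 and with a caller's p-value of 1. The miR396-related tcc-MIR396e-p3 was paired with the glutathione peroxidase MSTRG.14451, with 1 raw read at position 147, in category 4 and with a caller's p-value of 0.989. Neither p-value sets its site apart from cut ends at large. The 3 miR396-related sequences listed for MSTRG.14451 share the stretch TCAAGAAAGC, so they differ in where they start and their seeds are not the same. Of these, vvi-MIR396a-p3 was the most abundant, with estimated counts of 172, 158 and 180 in Vs hybrids, against 201, 190 and 185 in Vv plants, or 136, 147 and 129 counts after scaling to the listed miRNA reads (CPM) in Vs hybrids and 114, 103 and 126 in Vv plants. The sequence with the detected site, tcc-MIR396e-p3, had estimated counts of 2, 0 and 1 in Vs hybrids and 0, 0 and 2 in Vv plants, and pgi-miR6138_L-3R-2_1ss19AT was counted once in 1 Vs hybrid and once in 1 Vv plant.

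MSTRG.17719, the GST on chromosome 7, had the most listed partners, 13 small RNAs of 22 to 24 nt, 9 of them of 24 nt, and a cut end was detected for 0 of them. Of the 13 sequences, 11 hold TAGTGA, they have 7 different seeds, and 11 are listed in the miRNA table with a sum of 1 to 19 estimated counts over the 6 libraries. The 3 printed ones had estimated counts of 2, 1 and 2 in Vs hybrids and 0, 0 and 0 in Vv plants for PC-5p-1738250_3, of 2, 1 and 0 in Vs hybrids and 0, 0 and 3 in Vv plants for PC-5p-2603595_2, and of 4, 5.5 and 4 in Vs hybrids and 3.5, 0 and 2 in Vv plants for PC-5p-3680964_2. The other pairs without a detected end were of *ATGPX6*, MSTRG.14451, MSTRG.14925, MSTRG.17718, MSTRG.18055, MSTRG.21066 and *SPDS3*. For *SPDS3* the paired PC-5p-284876_17 had estimated counts of 0 in all 3 Vs hybrids and of 11, 17 and 5 in Vv plants. For MSTRG.14925 gma-miR159a-5p_R-1 had 7, 3 and 7 in Vs hybrids and 20, 18 and 42 in Vv plants. For *ATGPX6* mdm-MIR858-p5_2ss12GA18TA had 43, 7 and 16 in Vs hybrids and 6, 5 and 26 in Vv plants. For MSTRG.14451 ptc-miR396g-3p_L-1 had 6.5, 6.5 and 13 in Vs hybrids and 12.5, 21.5 and 7 in Vv plants. These counts are unscaled, and listed miRNA reads per library were 1073698 to 1397759 in Vs hybrids and 1466755 to 1843060 in Vv plants.

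Tested genes that the annotation ties to glutathione, but that lie outside both the 73 and the 11 dropped genes, had log2 fold changes between -0.84 and 0.95. Among 26 genes with glutathione in their description, GO term or EC number, 20 were tested and 10 lay on each side of 0. Their median log2 fold change was -0.05, and 0 passed the adjusted threshold, beside 0.557% of all tested genes. At an unadjusted p under 0.05 by limma, 0 were higher and 3 lower, beside 3.96% and 16.5% of all tested genes. The most positive were MSTRG.19543 (0.95, limma adjusted p = 0.363, and 0.32 without Vv replicate 3) and a lactoylglutathione lyase, MSTRG.14211 (0.67, limma adjusted p = 0.591, and -0.11 without Vv replicate 3). Lactoylglutathione lyase is the glyoxalase that acts on methylglyoxal bound to glutathione. The most negative were *GLX2-2* (MSTRG.4050), a glyoxalase of the next step, at 35.0, 59.6 and 64.2 FPKM in Vs hybrids, against 67.9, 85.1 and 136 FPKM in Vv plants (-0.84, limma adjusted p = 0.256), and MSTRG.138 (-0.73, limma adjusted p = 0.212).

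The 11 genes dropped because they also belong to another pathway had 10 tested members, 3 above 0 and 7 below, and their median was -0.33. Of these 10, 0 passed the adjusted threshold, beside 0.557% of all tested genes. At an unadjusted p under 0.05 by limma, 0 were higher and 3 lower, beside 3.96% and 16.5% of all tested genes. The isocitrate dehydrogenase MSTRG.14574, of the enzymes that supply NADPH, was at 42.0, 56.9 and 52.5 FPKM in Vs hybrids, against 129, 110 and 164 FPKM in Vv plants (log2 fold change -1.39, limma adjusted p = 0.0959). The 6-phosphogluconate dehydrogenase MSTRG.12281, of the same role, was listed at 0 in Vs replicate 1 and at 49.6 and 47.4 FPKM in the other Vs hybrids. It was at 27.6 FPKM in Vv replicate 1 and 0 in the other Vv plants. Its log2 fold change was 2.14 (limma adjusted p = 0.541), and the groups overlapped. Of 13 tested genes of ascorbate recycling, superoxide dismutase and catalase, 4 lay above 0 and 9 below, and their median was -0.26. Beside the same shares of all tested genes, 0 passed the adjusted threshold. By limma 0 were higher and 3 lower at an unadjusted p under 0.05. *CAT2* (MSTRG.9455), a catalase, was at 2263, 2213 and 2729 FPKM in Vs hybrids, against 1732, 1567 and 203 FPKM in Vv plants, and its log2 fold change of 1.54 (limma adjusted p = 0.323) was 0.54 without Vv replicate 3. MSTRG.17105, at the other end of that list, had a log2 fold change of -1.64 (limma adjusted p = 0.160). Its EC number is that of L-ascorbate oxidase, which is not a recycling enzyme.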

How the data were processed

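Per the study's methods, RNA-seq reads were mapped with HISAT to the *V. vinifera* genome (build: not given in the sources used here). The authors then estimated FPKM with StringTie, with no scaling between libraries stated. The deposited miRNA table holds estimated counts, the reads of a miRNA shared between its precursors. The deposited degradome table holds raw read counts at each cleavage site and the p-value the authors' caller gave it. Columns of the authors' own comparisons (fold changes, p-values) were not used. Genes that averaged 1 FPKM or more over the libraries were tested with limma 3.58.1 (R 4.3.3) on log2(FPKM + 1), 3 Vs hybrids against 3 Vv plants, with moderation to a common variance and Benjamini-Hochberg adjustment over all tested genes. The script was tested on simulated data. Alternatives were median-ratio and quantile scaling, pseudocounts of 0.1 and 5 FPKM, no filter or one at 5 FPKM, a mean-variance trend, replicate number as a block, each library left out, and the 11 dropped genes included. Named were members past the threshold, the 6 most positive and 6 most negative, the most abundant of each enzyme class, those in the degradome table, and the extremes of each related list. Members and lists were chosen with earlier results of these data known. Gene names follow the deposited pairing with values: of 219 rows of a published list matched by their 6 values, 219 share the description and EC number and 1 the gene ID. Replicates are separate plants.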

Additional observations from a re-analysis of the deposited data

How the results depend on the processing

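At an adjusted p under 0.05, 86 of all tested genes were called, against 57 with a filter at 5 FPKM, 40 with a pseudocount of 5 FPKM, 0 with the replicate number as a block (MSTRG.14583 then had an adjusted p of 0.0923, MSTRG.15093 of 0.0716 and MSTRG.1533 of 0.0923), and 20 to 79 with 1 library left out (24 without Vs replicate 2, and 40, 20 and 53 leaving out Vv replicates 1, 2 and 3 in turn). Deviations from the group mean correlated at 0.17, -0.05 and 0.04 between plants with the same number. Between plants with different numbers they correlated at -0.12 to 0.11. The value for replicate 1 was the highest of all pairs. So few values cannot decide whether the number marks a pairing, and the loss of the calls under the block stands as a limit. The number of members called was 1, against 2 with a filter at 5 FPKM, 0 with the replicate block, and 0 to 1 with 1 library left out (0 without Vs replicate 2). The median log2 fold change of the members was -0.06, against 0.20 after median-ratio scaling and -0.19 to 0.13 with 1 library left out. With no filter, 37 of all 73 members were above 0, against 24 of 54 tested, and those 54 again gave 24. With all genes naming the pathway, 27 were above 0 and 1 was called.

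Of 45 named genes, 5 turned direction under at least 1 alternative, 1 of them a member. MSTRG.2547 was at 0.16 after median-ratio scaling, at 0.10 after quantile normalization and at -0.30 to 0.080 with 1 library left out. MSTRG.19949 was at 0.22 after median-ratio scaling, at 0.18 after quantile normalization and at -0.70 to 0.73 with 1 library left out. With 1 library left out, MSTRG.13089 ranged from -0.33 to 0.76, MSTRG.14211 from -0.11 to 1.17 and MSTRG.19980 from -0.11 to 0.65. The cause was not tested. The deposited table gives no depth per library, so no counting error is given for low levels, and 3 plants per group limit each estimate.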

Other observations

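Redox and sulfur genes outside the pathway held 1 change. In a list of 4 genes with thioredoxin or glutaredoxin annotation, which includes thioredoxin reductases, 2 were above 0 and 2 below. By the adjusted threshold 0 were higher and 1 was lower, beside 0.278% of all tested genes in each direction. That gene, MSTRG.15093 (VIT_04s0044g01750), a thioredoxin reductase, of the enzymes that keep thioredoxins reduced with NADPH, was listed at 0 in all 3 Vs hybrids, against 35.0, 23.1 and 23.6 FPKM in Vv plants (limma adjusted p = 0.00145). With 1 library left out its adjusted p was 0.00485 to 0.0268. *NTRC* (MSTRG.19980), the chloroplast thioredoxin reductase, was at 19.7, 19.9 and 26.1 FPKM in Vs hybrids, against 23.0, 24.1 and 7.77 FPKM in Vv plants (log2 fold change 0.39, limma adjusted p = 0.625), and -0.11 without Vv replicate 3. An FPKM of exactly 0 can be a failed estimate.

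Of 24 tested sulfur metabolism genes, which supply the cysteine of glutathione, 6 lay above 0 and 18 below. Their median log2 fold change was -0.25, the same as that of all tested genes. The threshold was passed by 0 of them, beside 0.557% of all tested genes. At an unadjusted p under 0.05 by limma, 0 were higher and 3 lower, beside 3.96% and 16.5% of all tested genes. MSTRG.1280 was the most positive (1.26, limma adjusted p = 0.333, and 0.51 without Vv replicate 3) and the cysteine synthase MSTRG.5730 the most negative (-1.09, limma adjusted p = 0.176). Of 4 tested genes of polyamine synthesis outside the pathway, 1 lay above 0 and 3 below, and their median was -0.39. Beside the same shares of all tested genes, 0 passed. By limma 0 were higher and 1 lower at an unadjusted p under 0.05. *NLP1* (MSTRG.17425) was at -0.61 (limma adjusted p = 0.219), and the arginine decarboxylase MSTRG.13089 at 0.16 (limma adjusted p = 0.899).

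Among the organ markers, 15 of 16 tested leaf genes were above 0 with a median log2 fold change of 1.24, which was 0.54 without Vv replicate 3. By limma 2 leaf genes were higher and 1 lower at an unadjusted p under 0.05, beside 3.96% and 16.5% of all tested genes. Every Vs hybrid was above every Vv plant in 8 leaf genes and below in 1, beside 5.55% and 26.2% of all tested genes. *LHCB5* (MSTRG.10998) was at 1470, 1228 and 1972 FPKM in Vs hybrids, against 889, 769 and 128 FPKM in Vv plants (limma adjusted p = 0.252). The 1 leaf gene past the threshold, beside 0.557% of all tested genes, was the chlorophyll a-b binding protein MSTRG.1533, which went the other way. It was listed at 0 in all Vs hybrids, where an FPKM of exactly 0 can be a failed estimate. In Vv plants it was at 658, 434 and 94.9 FPKM (limma adjusted p = 0.0109). It did not pass without Vs replicate 1 (0.0514), Vs replicate 2 (0.0711) or Vv replicate 2 (0.0854). Of 4 tested phloem genes 2 were above 0 and 2 below, from *AtPP2-A14* (MSTRG.7991) at -0.89 to *AtPP2-A15* (MSTRG.19618) at 1.11. Of these 4, 0 passed, beside 0.557% of all tested genes. At an unadjusted p under 0.05 by limma, 0 were higher and 1 lower, beside 3.96% and 16.5% of all tested genes. All 4 tested ripe berry genes were below 0, 1 above and 3 below after median-ratio scaling, from MSTRG.3216 at -2.23 to the polygalacturonase MSTRG.19949 at -0.07, and 0 passed, nor did any have an unadjusted p under 0.05 by limma.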
